A study of Rattus norvegicus with 10 samples.

Results

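Mammary tumours induced by a carcinogen in female rats were compared by how much fibroblast and matrix RNA they held, with 3 of the 10 tumours stroma-poor and 7 stroma-rich. The classes were chosen by measured values of these same arrays, namely the mean level of fibroblast and extracellular matrix genes in each tumour, with a mean below 1.5 taken as poor and a mean above 2 as rich. A level is the log2 processed signal of a gene's probe minus the log2 of that array's 75th percentile of signal. The stroma-poor tumours were number 2 of the maternal Western-style diet group (WD2) and numbers 1 and 4 of the maternal control diet group (CD1 and CD4). The stroma-rich tumours were WD1, WD3, WD4, WD5, CD2, CD3 and CD5.

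All tumours came from Sprague-Dawley females that were given 1 intraperitoneal injection of N-methyl-N-nitrosourea (MNU, an alkylating carcinogen that induces mammary tumours in rats), 50 mg/kg at 3 weeks of age, and all were of the tubular/papillary type and taken at 110 days. The dams of 5 tumours ate a Western-style diet, high in fat and low in fibre and oligoelements, and the dams of the other 5 ate a control diet, on gestational days 12 to 20 and postnatal days 1 to 21. All offspring ate the control diet after weaning. Whether the animals of a diet group had different mothers is not stated in the labels, and the p-values given here measure the spread between tumours only.

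The stroma of a mammary tumour is the tissue around the epithelial tumour cells. It holds fibroblasts, which secrete collagens, proteoglycans and elastic fibre proteins, as well as blood vessels, macrophages and lymphocytes. Whole tumour pieces carry RNA of all these cells, so a lower share of stromal cells and less RNA per stromal cell cannot be told apart.

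Each tumour was measured on 1 single-colour array, and the number of arrays limits the precision. Between 16698 and 21926 of 41012 probes per array were well above background. The Western-style diet group held 1 poor and 4 rich tumours and the control diet group 2 poor and 3 rich (two-sided Fisher's exact test, p = 1, where the smallest p these totals allow is 0.167). Among the stroma-rich tumours, all 4 of the Western-style diet group had a higher mean of the fibroblast and matrix genes (2.33 to 2.66) than all 3 of the control diet group (1.91 to 2.18). Slide 1 held 1 poor tumour (WD2) and 2 rich ones (WD1 and CD2). Slide 2 held 4 rich tumours (WD3, WD4, CD3 and CD5) and no poor one. Slide 3 held 2 poor tumours (CD1 and CD4) and 1 rich one (WD5), so class and maternal diet cannot be told apart within it. Within the control diet group all poor tumours were on slide 3 and all rich ones on slides 1 and 2, so class and slide cannot be told apart there. The log2 75th percentile of signal was 0.17 lower in stroma-rich arrays (exact two-sided permutation test over 120 arrangements, p = 0.783, adjusted over 3 technical measures 0.783). The share of probes well above background was 1.74 percentage points higher (exact permutation p = 0.583, adjusted 0.783), and the share of signal in the 100 brightest probes was 2.21 points lower (exact permutation p = 0.125, adjusted 0.375). The 75th percentile also scaled the levels that chose the classes, so its p-value is not an independent check of brightness. As a check of the tissue label, the epithelial genes Epcam and Krt8 were well above background on all 10 arrays.

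Of 26 fibroblast and matrix genes, 21 were measured. Col5a2, Col6a1, Col6a3, Lox and Acta2 had no probe named here. The mean over the 21 genes was 1.32 in WD2, 1.25 in CD1 and 1.16 in CD4. In the stroma-rich tumours it was 2.38 in WD1, 2.66 in WD3, 2.33 in WD4, 2.50 in WD5, 2.18 in CD2, 1.91 in CD3 and 2.08 in CD5. WD2 lay closest below the lower limit and CD5 closest above the upper one. With these 21 genes, CD3 fell between the limits, and it is kept as stroma-rich because the rule names it. No test is given of any difference between the classes, since the arrays that would be tested also chose them.

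**Figure D1:**
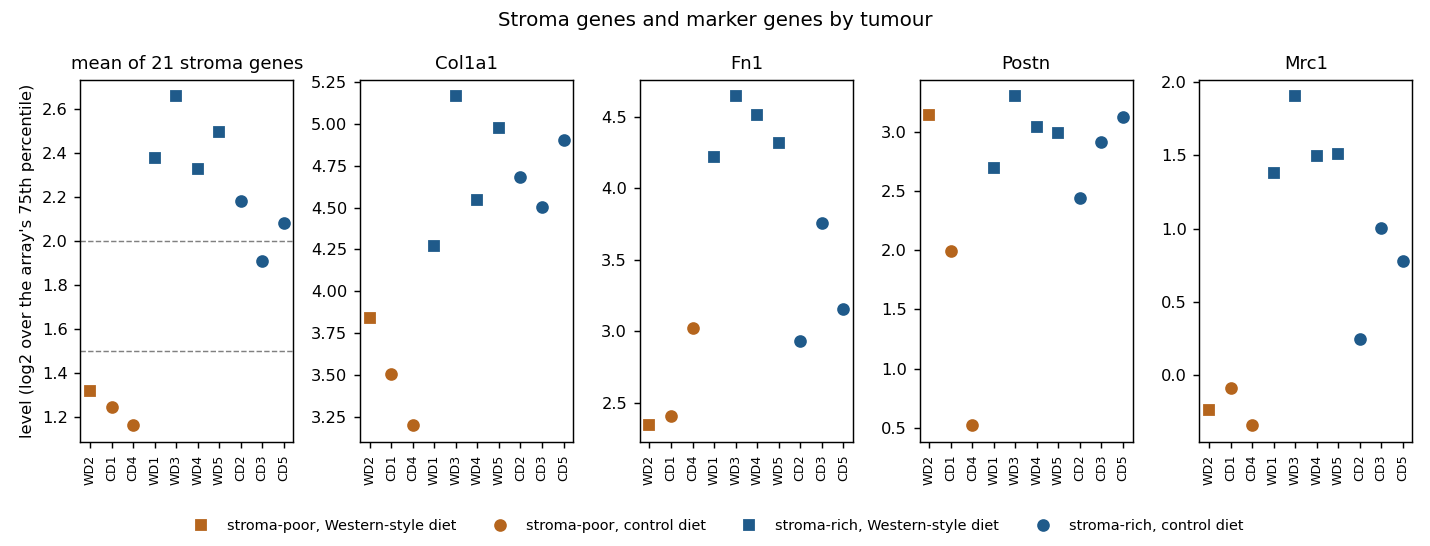
Level of the stroma gene mean and of 4 marker genes in each tumour, on the vertical axis as log2 over the array's 75th percentile. Squares are maternal Western-style diet and circles control diet tumours, brown stroma-poor and blue stroma-rich, and dashed lines mark 1.5 and 2. Col1a1 and Mrc1 separate the classes, while Fn1 and Postn overlap.

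The 4 markers of the label did not all follow the classes. Col1a1, the alpha-1 chain of type I collagen, had levels of 3.84 in WD2, 3.51 in CD1 and 3.20 in CD4, against 4.27 at the lowest, 4.68 at the median and 5.17 at the highest among the stroma-rich tumours. All 7 stroma-rich tumours lay above all 3 stroma-poor ones, and the difference with maternal diet as a covariate, rich minus poor, was 1.17 ± 0.23 (SE of the limma coefficient, log2, n = 3 and 7), or 2.25-fold. Mrc1, the mannose receptor of macrophages, had levels of -0.24 in WD2, -0.09 in CD1 and -0.34 in CD4, against 0.25 at the lowest, 1.38 at the median and 1.90 at the highest among the stroma-rich tumours. Its difference was 1.26 ± 0.25, and its classes did not overlap either.

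Fn1, which encodes fibronectin, stood at 2.34 in WD2, 2.41 in CD1 and 3.02 in CD4, and at 2.93, 4.22 and 4.64 for the lowest, median and highest stroma-rich tumour. The lowest stroma-rich tumour, CD2, lay below CD4, so the classes overlapped despite a difference of 1.17 ± 0.32. Postn, the matricellular protein periostin, stood at 3.14 in WD2, 1.99 in CD1 and 0.52 in CD4, and at 2.44, 3.00 and 3.30 in the stroma-rich tumours. WD2 had more Postn than 6 of the 7 stroma-rich tumours, while CD1 and CD4 lay below all 7. Its difference was 1.57 within the control diet group and -0.13 within the Western-style diet group.

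Among the other genes that chose the classes, the spread was wide. The small leucine-rich proteoglycan Dcn (decorin, which binds collagen fibrils) had levels of 1.09 in WD2, 1.46 in CD1 and 0.16 in CD4 and of 2.33, 3.67 and 4.37 for the lowest, median and highest stroma-rich tumour. Its difference of 2.51 ± 0.37, or 5.70-fold, was the largest among the members well above background on all 10 arrays. Lum (lumican, of the same proteoglycan family) was not well above background in any stroma-poor tumour and was so in all 7 stroma-rich ones, 4.22-fold higher by class means. Fap, a surface protease of activated fibroblasts, was not well above background in any stroma-poor tumour. It was 2.74-fold higher by class means in the stroma-rich ones, of which 6 measured it. For Lum, Fap and Cd8b, the gene's own signal exceeded the array's lowest signal well above background on all 3 stroma-poor arrays. Their folds are therefore plain differences of class means that rest on dim signal, not lower limits. These folds and the "at least" folds below hold for the processed signal and for class means without diet as a covariate. With maternal diet as a covariate, the differences of Lum (4.04-fold), Thbs2 (4.46-fold), Cd8b (2.55-fold) and Lyve1 (4.085-fold) lay below the folds given here without it. Without CD4 the Lum difference by class means was 3.20-fold. Normexp background correction adds an offset to each signal. With it, the fitted differences of Lum, Fap, Cd8b and the genes given here with an "at least" fold were 1.40-fold (Fap) to 2.55-fold (Ccl3).

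The collagen chains Col1a2 and Col3a1 differed by 1.36 ± 0.21 and 1.32 ± 0.27, the fibroblast receptor Pdgfra by 1.41 ± 0.24, the microfibril protein Fbn1 by 1.02 ± 0.21 and the proteoglycan Bgn by 1.02 ± 0.29, all with no overlap. The other members overlapped between the classes. Thy1 (0.01 ± 0.52), Fstl1 (0.00 ± 0.30), Col5a1 (0.17 ± 0.29), Sparc (0.30 ± 0.32) and Vim (0.34 ± 0.35) differed by no more than about their own errors. Among the 21 genes, those that separated the classes were thus type I and III collagen chains, proteoglycans, Fbn1, Fap and Pdgfra.

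A gene was called where the diet-adjusted difference was at least 1 (log2, 2-fold) and the levels of the 3 and the 7 tumours did not overlap. Of 18231 genes, 147 were called higher in stroma-rich tumours (0.806%) and 32 lower (0.176%), and 9 of the 147 were members of the stroma list. Over all genes the difference had a median of 0.00, and 50.4% of genes were above 0. With a size of at least 1 and overlap allowed, 371 were higher and 169 lower. With no overlap at any size, 345 of the 18231 genes were higher and 186 lower. Of the called genes, 72 higher and 10 lower ones were well above background on all 10 arrays, and 36 higher ones were not so on any stroma-poor array. A symbol was held by 97 of the genes called higher and 11 of those called lower. Of these, 48 were in any of the gene lists used below, so the lists cover only part of the called genes.

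These counts depend on single tumours and on the background correction. Without CD4, 268 genes were called higher and 92 lower, of which 140 and 21 were among the first. Without WD2, 204 were called higher and 72 lower, of which 96 and 24 were among the first. The rule of no overlap is easier to meet with fewer stroma-poor tumours. With normexp background correction 13 were called higher and 5 lower, and with the authors' own log2 values 32 and 6. Of the 147 genes, all 147 kept their direction under both of these, with median differences of 0.73 and 0.67 in place of 1.38, and of the 32 genes 31 and 32 did. With normexp only 52 of the 147 and 9 of the 32 still did not overlap, and with the authors' values 111 and 24. The genes were chosen on these same arrays, so a kept direction is not an independent check.

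**Figure D2:**
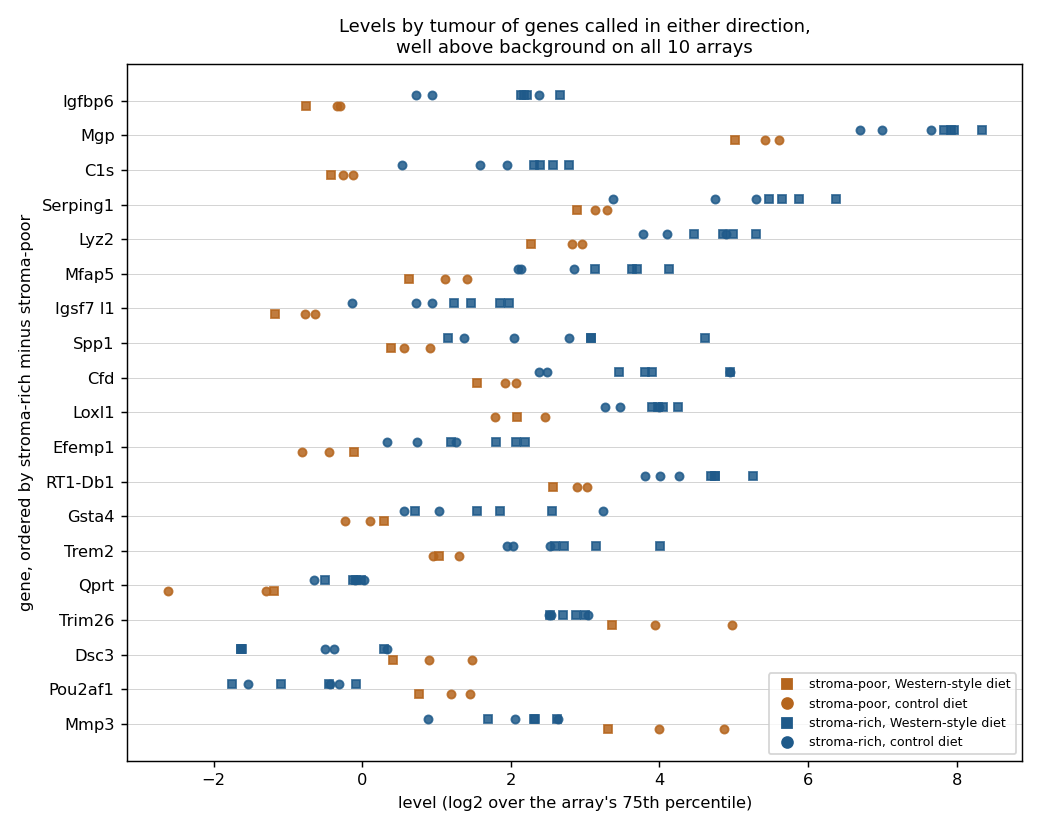
Level in each tumour (horizontal axis, log2 over the array's 75th percentile) of genes outside the stroma list that were called and well above background on all 10 arrays, ordered by difference. Squares are Western-style diet and circles control diet tumours, brown stroma-poor and blue stroma-rich. In each gene all brown points lie to 1 side of all blue points, from Igfbp6 (2.22) down to Mmp3 (-1.97).

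Among called genes with a symbol, outside the stroma list and well above background on all 10 arrays, Igfbp6 and Mgp differed most. Igfbp6, a binding protein that holds insulin-like growth factors, had levels of -0.76 in WD2, -0.29 in CD1 and -0.34 in CD4 and of 0.72, 2.18 and 2.67 in the stroma-rich tumours, a difference of 2.22 ± 0.39 or 4.65-fold. Mgp, the matrix Gla protein that inhibits calcification, had levels of 5.02, 5.61 and 5.42 in WD2, CD1 and CD4 and of 6.70, 7.82 and 8.34 in the stroma-rich tumours, 4.46-fold higher. For both genes the gap between the classes was wider than the spread of the stroma-poor tumours.

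Of 14 measured genes of the insulin-like growth factor axis, 8 were higher and 6 lower, and 3 were called, all higher. Over all genes, 50.4% were above 0 and 0.806% were called higher, so the split of 8 and 6 is near that of all genes. Besides Igfbp6 these were Igfbp4 (1.39 ± 0.33) and the growth factor Igf1 itself (1.13 ± 0.40). Igf1 had levels of 2.33 in WD2, 2.89 in CD1 and 2.58 in CD4 and of 2.91, 4.09 and 4.94 in the stroma-rich tumours. CD2 lay only just above CD1. Igfbp5 went the other way, at -0.91 ± 0.42, and overlapped.

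Of 14 measured matrix glycoproteins outside the stroma list, 12 were higher and 3 were called: Mfap5 (1.87 ± 0.39), Mfap4 (2.04 ± 0.60) and Efemp1 (1.61 ± 0.28), all proteins of elastic fibres. Mfap4 was well above background in 1 of the 3 stroma-poor tumours, so its size is uncertain. Mfap5 stood at 0.63 in WD2, 1.41 in CD1 and 1.11 in CD4 and at 2.10, 3.13 and 4.13 in the stroma-rich tumours, and its difference was 1.10 without WD2. Loxl1, an enzyme that cross-links elastin, was 1.66 ± 0.23 higher, the only called gene of 15 matrix assembly enzymes, of which 7 were higher and 8 lower. Of 12 proteoglycans outside the stroma list, 7 were higher and 5 lower, with a median of 0.09. Ogn (osteoglycin) was the only called one, 2.67 ± 0.51 higher, and 1.83 without WD2, and it too was well above background in 1 stroma-poor tumour. Fmod (fibromodulin) went the other way at -0.67 ± 0.81. Outside the stroma list, 2 of 3 fibrillar collagens and 2 of 5 other collagens were higher and none was called. Of 9 fibroblast identity genes outside it, 6 were higher and 3 lower, with a median of 0.14 and none called.

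Of 11 matricellular genes, which encode secreted proteins that act on cells rather than as scaffold, 10 were higher and 2 were called. Spp1 (osteopontin) had levels of 0.39 in WD2, 0.91 in CD1 and 0.56 in CD4 and of 1.16, 2.79 and 4.62 in the stroma-rich tumours, with WD4 the highest. Thbs2, an inhibitor of vessel growth, was not well above background in any stroma-poor tumour and was so in all stroma-rich ones, at least 4.82-fold higher.

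Not all matrix genes were higher in the stroma-rich tumours. Of 10 basement membrane genes, the sheet on which epithelium and vessels rest, 8 were lower, with a median of -0.27. The laminin chains Lamb3 (-0.59 ± 0.21) and Lamc1 (-0.58 ± 0.19) were lower in every stroma-rich than in every stroma-poor tumour, but by less than 1. Of all 18231 genes, 186 were lower without overlap at any size. Of 18 genes of transforming growth factor beta signalling 8 were higher and 10 lower, with a median of -0.04 (0.12 with normexp background) and none called, and Tgfb1 differed by 0.50 ± 0.29. The 15 smooth muscle and pericyte genes had a median of -0.04.

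Proteases that cut matrix differed in opposite directions. Mmp3 (stromelysin-1) had levels of 3.31 in WD2, 4.87 in CD1 and 4.00 in CD4 and of 0.89, 2.31 and 2.64 in the stroma-rich tumours, a difference of -1.97 ± 0.44, and -2.58 without WD2. Mmp11 (stromelysin-3) was not well above background in any stroma-poor tumour and was at least 3.15-fold higher in the stroma-rich ones, of which 5 measured it. Mmp23 was 1.68 ± 0.25 higher and well above background in 2 of the 3 stroma-poor tumours. The stroma list's Mmp2 (gelatinase A) differed by 1.15 ± 0.29 but overlapped, with CD5 at 2.71 below CD1 at 2.78.

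To show the sequence context of called genes at both ends of the order and of a marker, the 100 bases before the RefSeq start site (build GRCr8) are given for Igfbp6 (plus strand, chr7:135154819-135154918), Mmp3 (plus strand, chr8:12925181-12925280) and Postn (plus strand, chr2:140677961-140678060). Capitals mark matches on either strand to the TATA box motif TATAAA or to the AP-1 motif TGAGTCA. The search also covered the CCAAT box and the TEAD motif GGAATG. No matches overlap in these windows.
Igfbp6: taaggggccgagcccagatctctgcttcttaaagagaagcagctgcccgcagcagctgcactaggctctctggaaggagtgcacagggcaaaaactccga
Mmp3: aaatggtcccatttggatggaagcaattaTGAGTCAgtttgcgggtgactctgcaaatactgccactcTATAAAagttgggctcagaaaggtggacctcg
Postn: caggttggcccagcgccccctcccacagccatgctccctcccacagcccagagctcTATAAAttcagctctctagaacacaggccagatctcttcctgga

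Mmp3 thus holds TGAGTCA and TATAAA, Postn holds TATAAA, and none of these letters is in the Igfbp6 window. In the wider window of 250 bases before to 50 after the start, TATAAA was in 7 of 69 promoters of genes called higher (10.1%) and in 7.29% of 7170 promoters of tested genes. TGAGTCA was in 5.80% and 3.57%, CCAAT in 34.8% and 38.1%, and GGAATG in 10 of the 69 and 824 of the 7170. Of 9 promoters of genes called lower, 2 held TATAAA and 2 TGAGTCA.

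Among the gene lists, immune genes formed the other large group. Of 25 measured macrophage genes, 23 were higher in stroma-rich tumours and 10 were called (0.806% of all genes were), with a median of 1.12 beside 0.00 for all genes. The called ones were Lyz2, Adgre1, Trem2, Mrc1, Cd68, Tyrobp, Ctss and the complement subunits C1qa, C1qb and C1qc. The mean level of the list was 0.74 in WD2, 1.19 in CD1 and 1.14 in CD4 and 1.39, 2.15 and 2.79 for the lowest, median and highest stroma-rich tumour. CD5 was the lowest stroma-rich tumour and WD4 the highest.

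Lyz2, the lysozyme of macrophages and granulocytes, had levels of 2.28 in WD2, 2.96 in CD1 and 2.83 in CD4 and of 3.78, 4.86 and 5.30 in the stroma-rich tumours, a difference of 1.87 ± 0.32. Trem2, a lipid-sensing macrophage receptor, differed by 1.45 ± 0.34. Adgre1, a surface antigen used to mark macrophages, differed by 1.80 ± 0.31, and by 1.14 without WD2, and was well above background in 2 stroma-poor tumours. The lipopolysaccharide co-receptor Cd14 went the other way (-0.49 ± 0.49) and overlapped.

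All 7 measured genes of class II antigen presentation were higher (5 of 7 with the authors' log2 values), with a median of 1.14, and 3 were called: RT1-Db1 (1.56 ± 0.26), RT1-Da (1.25 ± 0.32) and RT1-DMa (1.14 ± 0.25). RT1-Db1 had levels of 2.57 in WD2, 3.03 in CD1 and 2.89 in CD4 and of 3.81, 4.69 and 5.26 in the stroma-rich tumours. Cd74, the invariant chain, differed by 1.31 ± 0.33, and its lowest stroma-rich tumour at 5.57 lay below CD1 at 5.60. The list mean of CD5 was 1.65, close to the 1.60 of CD4, while the other stroma-rich tumours were at 2.45 or above.

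Of 21 complement and coagulation genes, 17 were higher and 7 were called, 3 of them the C1q subunits counted above. The list means overlapped, with CD5 at 0.97 below CD1 at 1.03 and CD4 at 1.10. C1s, a protease of the C1 complex, had levels of -0.43 in WD2, -0.13 in CD1 and -0.26 in CD4 and of 0.54, 2.32 and 2.78 in the stroma-rich tumours, 4.30-fold higher. Serping1, the inhibitor of C1s, was 1.94 ± 0.45 higher, and 1.26 without WD2. For both genes CD5 was the stroma-rich tumour nearest to the poor ones, with Serping1 at 3.37 against 3.29 in CD4. Cfd (complement factor D, also made by adipocytes) differed by 1.76 ± 0.57, whereas the adipocyte gene Adipoq overlapped at 0.84 ± 0.78 and was well above background in 4 of the 10 tumours.

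Chemokines, which draw leukocytes, differed unevenly. Of 19 measured inflammatory chemokine and cytokine genes, 13 were higher and 3 were called. The list means overlapped, with CD5 at 0.04 the lowest of all tumours. Ccl5 had levels of -2.39 in WD2, -2.15 in CD1 and -2.30 in CD4 and of -1.34, 0.29 and 1.24 in the stroma-rich tumours, 5.91-fold higher, and 2 of the 3 poor tumours measured it. Ccl3 was not well above background in any stroma-poor tumour and was at least 6.99-fold higher in the stroma-rich ones, of which 6 measured it, with WD4 at 3.96 and the next tumour at -0.75. This lower limit was 4.14-fold without WD4, and the fitted difference was 7.80-fold with all tumours and 5.17-fold without WD2. Cxcl9 went the other way at -1.06 ± 0.53, with overlap.

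Of 15 T and NK cell genes, 14 were higher, with a median of 0.81, and Cd8b and Nkg7 were called. The list means overlapped, with CD5 at -1.275 below WD2 at -1.03 and CD1 at -0.99. Cd8b, a subunit of the co-receptor of cytotoxic T cells, was 2.85-fold higher by class means in the stroma-rich tumours and not well above background in the poor ones. The general T cell gene Cd3e differed by 0.18 ± 0.38. Of 21 interferon response genes, 20 were higher but none was called, and none differed by more than 0.64. Of 4 measured B and plasma cell genes, 3 were lower, and Pou2af1, a coactivator of B cells, was called lower: it stood at 0.76 in WD2, 1.44 in CD1 and 1.19 in CD4 and at -1.75, -0.45 and -0.09 in the stroma-rich tumours.

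**Figure D3:**
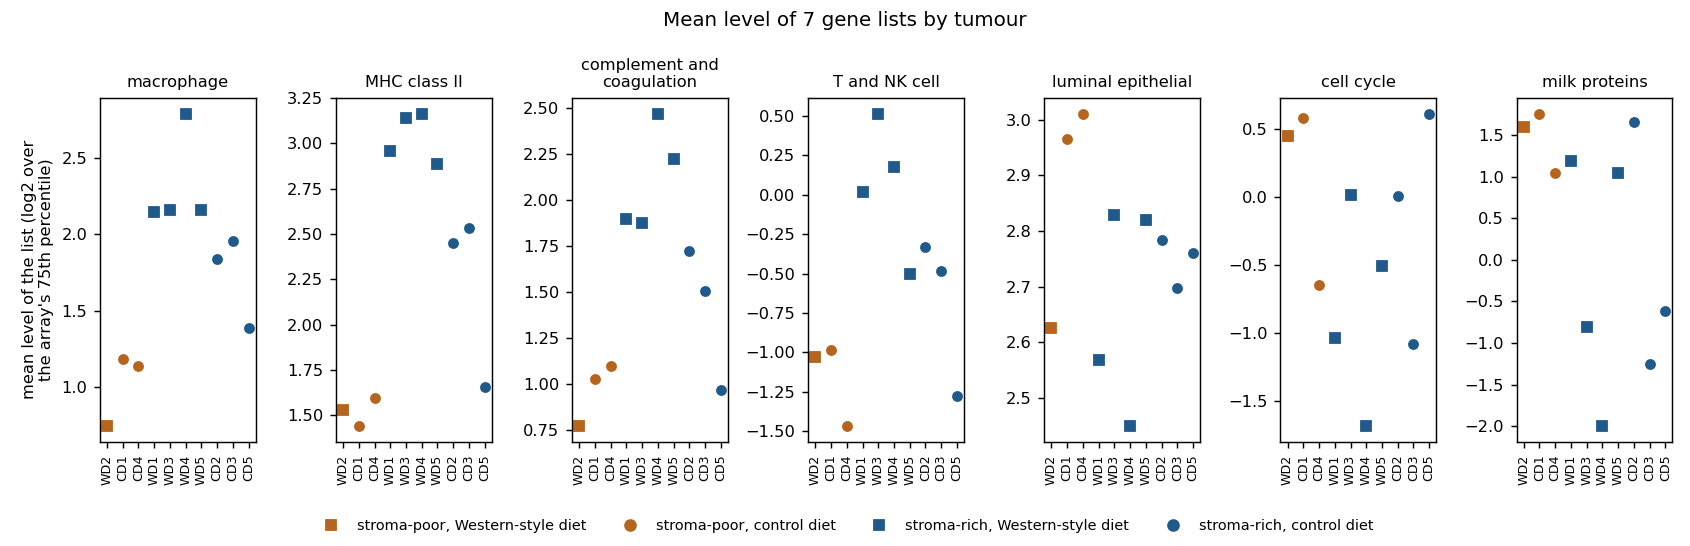
Mean level in each tumour of 7 gene lists, on the vertical axis as log2 over the array's 75th percentile. Squares are Western-style diet and circles control diet tumours, brown stroma-poor and blue stroma-rich. The macrophage and class II lists separate the classes, with CD5 the lowest stroma-rich tumour. The complement and coagulation, T and NK cell, luminal, cell cycle and milk lists overlap.

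Vessel genes followed the classes weakly. Of 11 blood endothelial genes 8 were higher, with a median of 0.35, and only the tight junction gene Cldn5 was called (1.78 ± 0.49), with 1 stroma-poor tumour well above background. Of 5 lymphatic vessel genes 3 were higher and 2 lower, and none was called. Ccl21 differed by 2.11 ± 0.95 and Lyve1 was at least 4.11-fold higher, measured in 5 stroma-rich tumours and no poor one, while Reln and Pdpn were at -0.57 ± 0.36 and -0.09 ± 0.15. Of 11 mast cell genes 8 were higher, with a median of 0.21 and none called.

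As lists, epithelial genes differed little. Of 22 luminal genes, 8 were higher and 14 lower, with a median of -0.08 and none called (4 higher and 18 lower, median -0.21, with normexp background). Among the luminal genes Elf5 differed most, by -1.46 ± 0.73 with overlap. Krt8, a luminal keratin, differed by -0.26 ± 0.39, Epcam by -0.38 ± 0.25 and Cdh1, the E-cadherin of epithelial junctions, by -0.09 ± 0.17. The mean level of the luminal list was 2.63 to 3.01 in the poor and 2.45 to 2.83 in the rich tumours. Of 11 basal genes 5 were higher and 6 lower, and the desmosomal cadherin Dsc3 was called lower (-1.44 ± 0.43). Of 14 hormone signalling genes 12 were lower, with a median of -0.17 and none called, and the oestrogen receptor Esr1 differed by -0.80 ± 0.35 with overlap.

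Proliferation and milk genes leaned the other way without separating the classes. Of 31 cell cycle genes, 30 were lower in stroma-rich tumours, with a median of -0.60 and none called. Their mean level was 0.45 in WD2, 0.58 in CD1 and -0.65 in CD4 and -1.69, -0.51 and 0.62 for the lowest, median and highest stroma-rich tumour. The mean difference was -0.12 within the control diet group and -1.25 within the Western-style diet group, and the second value rests on WD2 as the only stroma-poor tumour.

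Of 10 milk protein genes, 9 were lower, with a median of -1.51 and none called. Csn3, the kappa casein, had levels of 5.62 in WD2, 6.67 in CD1 and 5.62 in CD4 and of -1.11, 3.78 and 6.64 in the stroma-rich tumours. All 4 stroma-rich tumours with a list mean below 0 (WD3, WD4, CD3 and CD5) were on slide 2, which held no stroma-poor tumour. The mean difference of the list was -1.58 over all tumours, -0.18 within slide 1 and -0.35 within slide 3. On slide 3 the classes also differ in maternal diet, with WD5 stroma-rich and CD1 and CD4 stroma-poor. The part of the slide in the milk protein difference was not tested.

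Fewer genes were lower than higher in stroma-rich tumours. Of the 32 called lower, 11 had a symbol: Pde6h, Mmp3, Pou2af1, Dll1, Dsc3, Trim26, Ttc8, Wnt7b, Pdia2, Ankrd22 and Nlgn2. Pde6h, a subunit of the phosphodiesterase of cone cells, stood at -1.28 in WD2, -0.14 in CD1 and -0.14 in CD4 and was not well above background in any stroma-rich tumour, at least 9.50-fold lower. With normexp background its difference was 1.84-fold and with the authors' log2 values 1.88-fold. Trim26, a ubiquitin ligase, had levels of 3.36, 3.93 and 4.98 in WD2, CD1 and CD4 and of 2.52, 2.70 and 3.04 in the stroma-rich tumours. The stroma-rich tumours varied less for Trim26 than the poor ones.

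**Figure D4:**
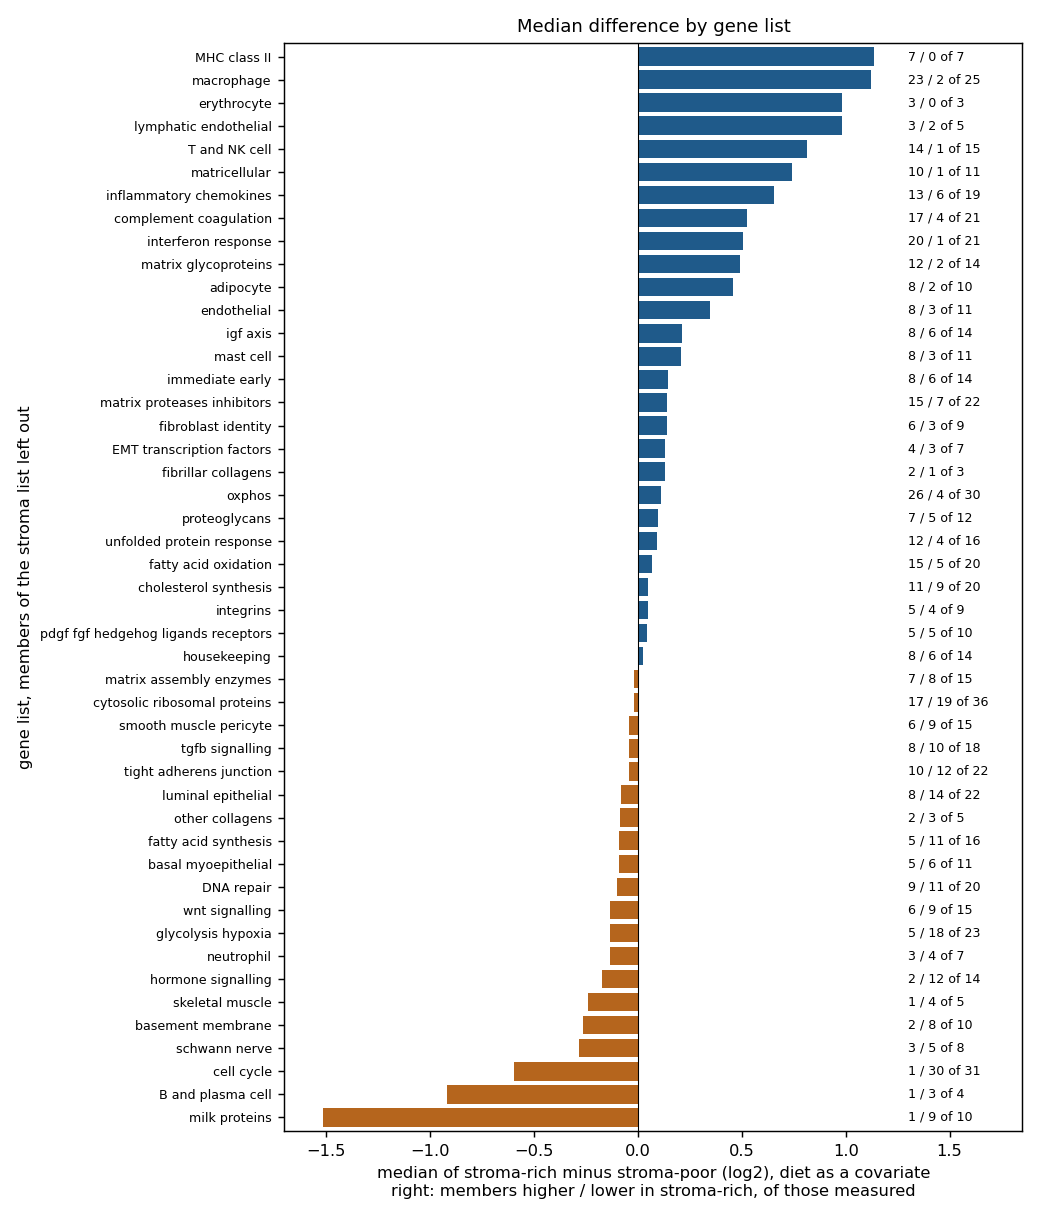
Median difference between stroma-rich and stroma-poor tumours (horizontal axis, log2, with diet as a covariate) for each gene list after leaving out members of the stroma list. Numbers at the right give members higher and lower of those measured. Class II and macrophage genes are at the top (1.14 and 1.12) and milk proteins at the bottom (-1.51).

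Other lists stayed near the median of all genes: 14 housekeeping genes at 0.02, 36 cytosolic ribosomal protein genes at -0.02, 22 junction genes at -0.04 and 20 cholesterol synthesis genes at 0.05. The 30 genes of oxidative phosphorylation had a median of 0.11, with 26 higher and none called. With normexp background the medians of the housekeeping, ribosomal, junction, cholesterol synthesis and oxidative phosphorylation genes were -0.22, -0.30, -0.21, -0.03 and -0.12, so the housekeeping, cholesterol synthesis and oxidative phosphorylation medians turned in sign. The junction genes were then 4 higher and 18 lower, in place of 10 and 12. The part of each cell type in the called genes was not tested.

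The difference was then set side by side in the diet groups, which share no tumour, a comparison chosen after the data were seen. Outside the stroma list, 342 genes were higher by at least 1 and did not overlap in the 3 stroma-rich against the 2 stroma-poor control diet tumours. Of these, 105 (30.7%) were also at least 1 higher in the 4 stroma-rich tumours than in WD2, against 4.76% of all genes, while 56 (16.4%) were at least 1 lower, against 6.21%. Of 198 genes lower in the control diet stroma-rich tumours, 33 (16.7%) were at least 1 lower and 9 (4.55%) at least 1 higher in the Western-style diet group. The Western-style diet group has 1 stroma-poor tumour, so its differences carry no estimate of spread for that class. In the control diet group the stroma-poor tumours were all on slide 3 and the stroma-rich ones on slides 1 and 2. Control diet differences thus cannot be told apart from differences between slides.

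Macrophage genes differed by a mean of 0.56 in the control diet and 1.57 in the Western-style diet group, class II genes by 0.69 and 1.51, and complement and coagulation genes by 0.34 and 1.35. The stroma list, which chose the classes, differed by 0.85 and 1.15. Whether these differences were unequal between the diet groups was not tested. Within slide 1 and within slide 3, macrophage genes differed by 1.25 and 1.00 and class II genes by 1.17 and 1.37. These values take no account of diet. Slide 3 sets the Western-style diet tumour WD5 against the control diet tumours CD1 and CD4. Class and diet thus cannot be told apart on slide 3. The slide 1 values rest on WD2 as the only stroma-poor tumour.

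**Figure D5:**
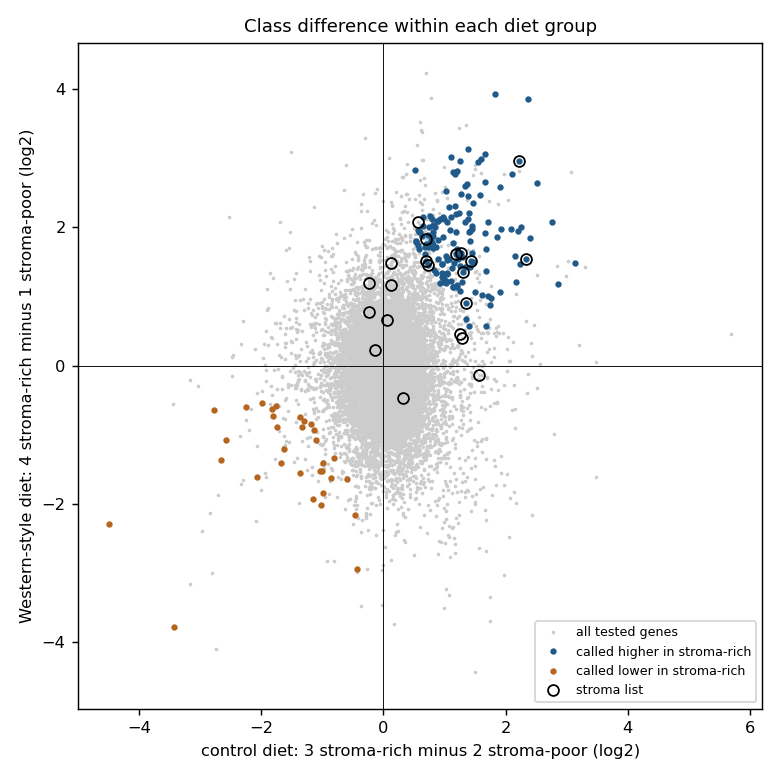
Each tested gene's stroma-rich minus stroma-poor difference (log2) among control diet tumours on the horizontal axis and among Western-style diet tumours on the vertical axis. Blue and brown points are the genes called higher and lower over all 10 tumours, and open circles are the stroma list. Most grey points lie in a cloud around 0, and called genes lie off 0 in the same direction on both axes by the way they were chosen.

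Maternal diet, which played no part in choosing the classes, was tested with stroma class as a covariate. By limma with Benjamini-Hochberg adjustment over all 18231 genes, 0 genes passed an adjusted p of 0.05, and the lowest adjusted p was 0.215. Before adjustment 2678 genes had a p under 0.05, of which 1444 were higher and 1234 lower in the Western-style diet group. Without stroma class in the fit 0 genes passed, the lowest adjusted p was 0.141, and 2793 genes were under 0.05 unadjusted, of which 2353 were shared with the first fit. Array brightness was uneven between the diet groups. The log2 75th percentile of signal was 6.19 to 7.41 in the Western-style diet group. In the control diet group it was 6.41 in CD3 and 7.56 to 7.82 in the others. With brightness as a covariate 1064 genes were under 0.05 unadjusted. The part of brightness in the diet differences was not tested.

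The diet genes of smallest p had similar differences with and without stroma class. Tppp3, a tubulin polymerisation promoting protein, was 1.56 ± 0.25 higher in the Western-style diet group with stroma class in the fit and 1.64 higher without it (limma adjusted p = 0.215). Its level was 3.18 ± 0.47 in the Western-style diet and 1.54 ± 0.41 in the control diet group (SD, n = 5 each). Morn4 was 1.01 ± 0.15 lower with stroma class, a coefficient of -1.01, and Pepd, a dipeptidase that releases proline and acts on collagen fragments, differed by -1.35 with and -1.20 without stroma class (limma adjusted p = 0.215 for both). None of these passed the adjusted threshold.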

How the data were processed

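RNA of 10 rat mammary tumours was hybridised to single-colour (Cy3) Agilent whole rat genome arrays, 200 ng each per the labels' protocols. Per the file headers the authors read spots with Feature Extraction 11.5.1.1 (the submitters' processing notes name 15.5), and the deposited files give background-subtracted processed intensity values, median pixel intensity values and marks of 0 or 1 for saturation, outliers and signal above background. The authors also deposited a value table on a log2 scale, which ranked each array's spots in file order as its median signals do (Spearman correlation 1 on all 10 arrays, column medians 6.97 to 6.98), so its rows were matched by file order. Its centring and background treatment are not given in the sources used here.

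Levels were log2 processed signal minus the log2 75th percentile over 43379 non-control spots. Outlier spots were left out, spots of a probe averaged, probes kept when well above background on at least 3 of 10 arrays (21456 of 41012), and the brightest probe taken per gene. RefSeq GRCr8 accessions named 17502 probes, and 8736 of the 18231 genes tested had a symbol. limma 3.58.1 in R 4.3.3 fitted stroma class and diet, and figures used matplotlib 3.10.9. The fitting code was tested on simulated data. The class difference carries no p-value. An "at least" fold sets a class mean against the mean over the dim arrays of the higher of the gene's own signal and that array's lowest signal well above background. It takes no account of diet. No measuring spot was saturated.

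Class members, gene lists and rules were chosen with earlier results of these data known. Named genes were the stroma list, the 15 largest called differences per direction among symbol-bearing genes on all 10 arrays, the 5 largest bounds per direction, up to 5 members of each of 48 lists, a set of epithelial, hormone and growth factor genes, and 5 diet genes per direction, of which 1 is not reported here. The called members of lists and the genes called lower were also named after their values were seen. Alternatives covered background, scaling, filters, probes, slide, replicate number, brightness and each tumour in turn. Normexp (offset 50) used median spot signals, which the deposited files give, in place of the planned mean spot signals.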

Additional observations from a re-analysis of the deposited data

Results flagged for a closer look

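Ccl3 stood apart in 1 stroma-rich tumour: its level was 3.96 in WD4, while the next highest stroma-rich tumour was at -0.75 and the lowest at -2.32. Among 60 genes, 48 lists and 4 technical measures looked at in the 7 stroma-rich tumours, this was the only such value, where chance alone flags about 1 in 20 groups.

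Some lists differed in opposite directions in the diet groups, with every stroma-rich tumour on the same side of the stroma-poor ones in each. Integrin genes had a mean difference of -0.30 in the control diet and 0.45 in the Western-style diet group, cytosolic ribosomal protein genes of -0.21 and 0.21, and housekeeping genes of -0.14 and 0.24. The Western-style diet values rest on 1 stroma-poor tumour, and the difference between the diet groups was not tested.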

How the results depend on the processing

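The count of 147 genes called higher and 32 called lower became 13 and 5 with normexp background (10 and 4 of them among the first), 32 and 6 with the authors' log2 values (30 and 6), 72 and 10 with a filter on all 10 arrays, 233 and 94 at a difference of 0.58, 19 and 3 at a difference of 2, and 371 and 169 with overlap allowed. Without a filter 59 were called lower. In the tumours of slides 1 and 3 alone with slide as a block, an alternative added after the data were seen, 322 and 105 were called, of which 128 and 24 were among the first, whose classes cannot overlap in a subset of the same tumours. Leaving out each tumour in turn gave 147 to 268 genes higher and 32 to 92 lower. Quantile normalization, a filter on 5 arrays, the mean of probes, slide as a block, brightness as a covariate and no diet covariate each left both counts within 1.5 times. With a replicate block they were 139 and 28. Deviations of same-numbered tumours correlated between -0.02 and 0.16, which does not settle whether the replicate numbers pair the tumours. The diet comparison gave 0 genes at an adjusted p under 0.05 in every alternative run. Its count at an unadjusted p under 0.05 was 2678, and 8271 without a filter on dim probes (2094 of them among the first), 375 with normexp, 1064 with brightness as a covariate, 1523 without WD2 and 1283 in the stroma-rich tumours alone. The brightness difference of -0.17 turned to 0.035 without CD1 and 0.041 without CD4, and leaving out each tumour gave -0.57 to 0.041. The cause of these shifts was not tested. The number of arrays and dim signal limit the precision, and the difference of genes dim in all 3 stroma-poor tumours is a bound or rests on dim signal.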
